A study of Mus musculus with 4 samples.

Results

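The comparison of mouse molar germs at embryonic day 12 (E12) with germs at E14 rested on 1 two-colour oligonucleotide array, on which pooled E12 RNA was labelled with Cy5 and pooled E14 RNA with Cy3. Of 41174 non-control probes, 24891 (60.5%) were well above background in at least 1 channel and form the set described here. They stand for 16606 of 27666 genes on the array, of which 15058 were above background in both channels, 1119 in the E12 channel only and 429 in the E14 channel only. The germs were whole first molars of the lower jaw of C57BL/6 embryos. The labels do not state how many embryos were pooled. The series also set E11, E16 and E18 pools against E14, so that E14 was measured 4 times and every other stage 1 time, with no dye swap. The E11 and E12 arrays lay on 1 slide and the E16 and E18 arrays on another. With 1 E12 pool there is no replicate, so no test was made, and stage cannot be told apart from dye or pool. The E12 and E14 channels shared an array, so slide bears only on values set beside those of the E16 and E18 arrays.

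The molar germ forms where a thickened band of oral epithelium grows down into mesenchyme that came from the cranial neural crest. At E12 the epithelium is entering the bud, and at E14 it has folded into a cap around a condensed dental papilla, with a signalling centre, the enamel knot, at its tip. FGF, BMP, hedgehog and Wnt ligands pass between the epithelium and the mesenchyme throughout, and the initiating signals of the early oral epithelium give way to those of the enamel knot. A whole germ holds both tissues as well as vessels, nerves and blood. In such bulk RNA, fewer cells of a type and less RNA per cell cannot be told apart.

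All values below are log2 ratios of E12 over E14, or log2 levels of a channel, and a negative ratio means a lower level at E12. Where the 4 E14 levels of a gene are listed, the first is from the E12 array itself and the others from the E11, E16 and E18 arrays in that order. Folds given as "at least" use the mean of the 4 E14 levels, so they can exceed the fold on the E12 array alone. The E14 level repeated with a median SD of 0.051 log2 units over genes (n = 4 hybridisations), and any pair of E14 hybridisations had at most 0.0542% of genes 2-fold apart. That spread is between hybridisations of E14 RNA and cannot be taken to cover the spread between pools of embryos. Whether the E14 hybridisations drew on 1 pool is not stated in the labels.

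Between E12 and E14, 514 of 16606 genes (3.1%) stood at least 2-fold apart. The difference ran mostly 1 way, with 459 genes (2.76%) lower at E12 and 55 genes (0.331%) higher. These shares of all genes are the ones to set beside every list count below. The median over all genes was -0.001 and 89.5% of genes lay within 1.5-fold. Of the 55 higher genes, 46 were at least 2-fold above each of the 4 E14 levels, and of the 459 lower genes, 405 were at least 2-fold below each of them. The E14 level on the E12 array, by which the genes were picked, is 1 of these 4. Of the 514 genes, 191 had several probes, and in 78 of these all probes stood at least 1.5-fold from E14 in 1 direction. In 186 of the 191 all probes had the same sign. An offset added to both channels pulls the ratios of dim probes towards 0, so a dimmer probe of a gene can give a smaller ratio than a brighter one. The software's own ratios called 2052 genes, 772 higher and 1280 lower, so that the share of higher calls was 37.6% there against 10.7% here. Ratios centred on the median without correction for intensity called 5663 genes higher and 126 lower, with the median of all genes at 0.69.

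**Figure D1:**
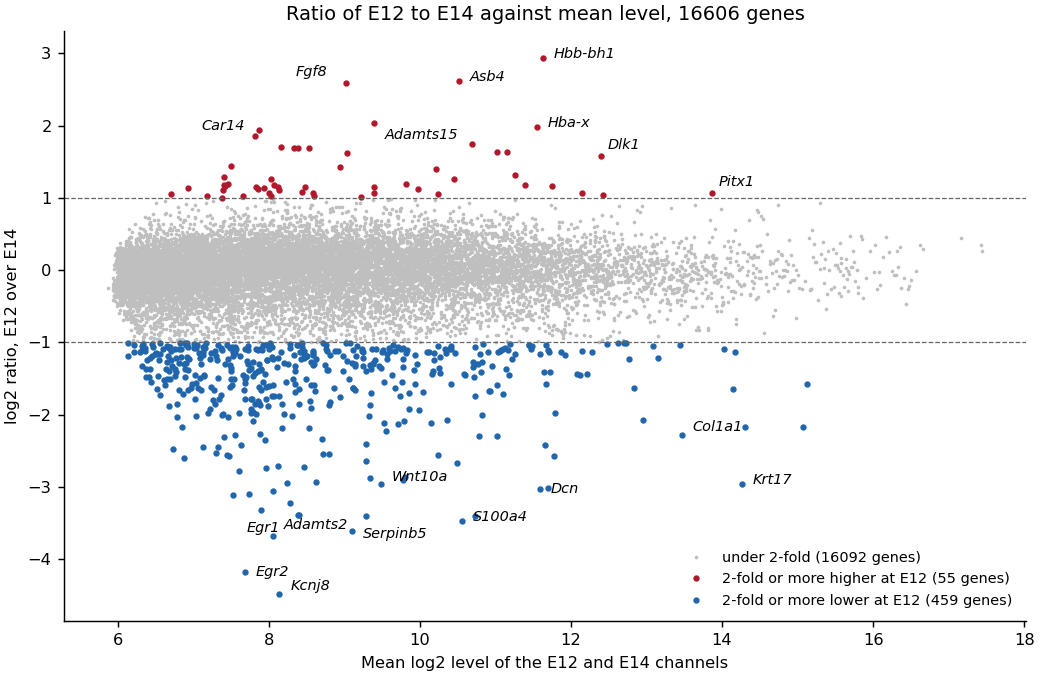
Each dot is a gene, placed by the mean log2 level of the E12 and E14 channels (horizontal) and its log2 ratio of E12 over E14 (vertical), with dashed lines at 2-fold. The 459 lower genes (blue) far outnumber the 55 higher genes (red).

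The lowest gene at E12 was Kcnj8, which encodes the Kir6.1 pore of an ATP-sensitive potassium channel and marks pericytes. Its level was 5.90 at E12, against 10.38, 10.34, 10.37 and 10.42 in the E14 hybridisations, a 22.3-fold difference from a probe at chr6:142653175-142653234 (build mm7 of the array's annotation, minus strand). A second Kcnj8 probe, which was not well above background at E12, gave -1.28. By the software's ratios the Kcnj8 probes gave -6.00 and -4.78. The other pericyte markers did not stand as far from E14: Cspg4, a pericyte proteoglycan, was at -1.86 but at 0.07 by another of its 3 probes, and Mcam, an adhesion protein of vessel walls, was at -1.29 with a second probe at -0.47. The Cspg4 probe at 0.07 stayed above E14 by the software's ratios, at 0.25. Abcc9, the channel's regulatory subunit, was at -0.30, and Rgs5 was at 0.38. Over the 12 measured members of the pericyte and smooth muscle list, 3 were at least 2-fold lower and 0 higher, with a median of -0.33. Their mean log2 level, which includes Kcnj8 itself, was 8.38 at E12, against 9.15 to 9.20 in the E14 hybridisations. That mean is therefore no separate measure of cell numbers, and what these contribute to the Kcnj8 difference was not tested.

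**Figure D2:**
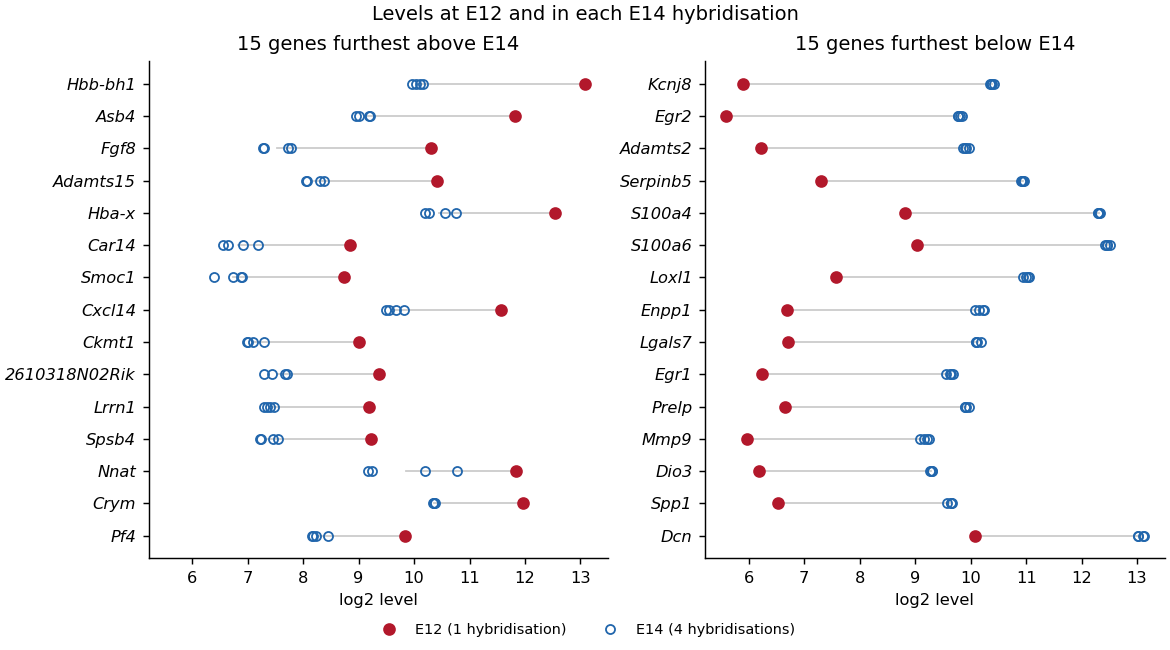
Log2 level at E12 (filled, 1 hybridisation) and in each of 4 E14 hybridisations (open) for the 15 genes furthest above and the 15 furthest below E14 among genes above background in both channels. No E12 level overlaps the E14 levels of the same gene, but the genes were picked for a large ratio on the E12 array. The E14 points of Nnat spread most.

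Transcription factors of the early growth response family, which growth factors and other stimuli induce within minutes, were the next group. Egr2 had a level of 5.59 at E12, against 9.78, 9.78, 9.81 and 9.84 in the E14 hybridisations, and so was 18.2-fold lower. Egr1 had 6.23 at E12, against 9.55, 9.62, 9.68 and 9.65 at E14, which is 9.98-fold lower. Egr3 was not well above background at E12 (5.57, against 8.17 to 8.25 at E14). It was at least 6.09-fold below the mean of the E14 levels, and 6.04-fold lower on the E12 array alone. Its second probe, dim too, gave a ratio of only -0.45. For all 3 genes the E12 level lay far below every E14 level. The same genes were below E14 at E11, E16 and E18 too: Egr2 at -4.1, -2.4 and -2.9, Egr1 at -3.3, -1.6 and -1.8, and Egr3 at -2.5, -2.4 and -2.0. The difference from E14 is thus not particular to E12. E14 was in the Cy3 channel on every array, and the source of the difference was not tested. Other immediate early genes were lower by less: Gadd45g, a stress and growth arrest gene, was at -2.29, the AP-1 component Junb at -1.87 and the cytoskeletal gene Arc at -1.61. Of 29 measured immediate early genes, 9 were at least 2-fold lower and 0 higher, with a median of -0.74, against 2.76% lower and a median of -0.001 over all genes. In all, 27 members had ratios below 0 and 2 above. The AP-1 component Jun was at -0.74, the phosphatase Dusp1 at -0.06 and the signalling regulator Rgs2 at 0.27.

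Serum response factor, through which growth factor signals reach many of these genes, binds a sequence called the CArG box. Egr2, the second lowest gene above background in both channels, held a CArG box before 2 of its annotated starts in RefSeq (build GRCm38.p6), and both are shown with their flanks, plus strand, the box in capitals, each beginning 72 bases before a start. The first lies at chr10:67537484-67537513 and the second at chr10:67537787-67537816.
Egr2, first box: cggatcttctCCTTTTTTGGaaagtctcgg
Egr2, second box: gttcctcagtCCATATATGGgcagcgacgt
Both strands of the 250 bases before each start were searched, and 439 of 27025 genes (1.62%) held a box there. Of the 29 measured immediate early genes, 24 had a promoter in the RefSeq table, and 2 of these held the box, Egr2 and the RNA-binding Zfp36, whose ratio was -0.10. A match is a string of letters and not a shown site of binding.

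Matrix genes were examined by class. Of 22 measured mesenchymal collagen chains, 11 were at least 2-fold lower, 0 were higher and the median was -1.0. Col8a1, a chain of a short network-forming collagen, was 6.38-fold lower, and Col6a3 and Col16a1 were 5.93- and 5.91-fold lower, although the other probes of these 3 genes lay between -0.83 and -0.21, of which those at -0.26 and -0.21 were dim at E12. The main bone and dentin chain Col1a1 had a level of 12.33 at E12, against 14.61, 14.59, 14.38 and 14.52 at E14, and its 3 probes lay between -2.28 and -0.73. Its partner Col1a2 was at -0.68, close to the Col1a1 probe at -0.73. The basement membrane and vessel chains Col18a1 and Col15a1 were at 0.02 and -0.46. In the cartilage list, Col2a1, the main cartilage chain, was on the other side of E14, at 0.97 on its brightest probe and 1.27 on the other.

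Small leucine-rich proteoglycans, which coat collagen fibrils and bind growth factors, had 1 direction. All 11 measured members had ratios below 0, 8 of them at least 2-fold, and the median was -1.40. Dcn (decorin) was among the brightest, with a level of 10.07 at E12, against 13.10, 13.12, 13.02 and 13.02 at E14, or 8.15-fold lower by a probe at chr10:97080086-97080145 (mm7). A second Dcn probe gave -0.15 and was dim at E12. By the software's ratios the Dcn probes gave -3.07 and -1.87. Prelp, which anchors basement membranes, was 9.36-fold lower, Ogn (osteoglycin) 7.65-fold and Aspn (asporin) 4.09-fold. Omd (osteomodulin), not well above background at E12, was at least 3.93-fold below the mean of the E14 levels, and 3.66-fold lower on the E12 array alone. Aspn, Omd and Ogn are adjacent among the measured genes of chromosome 13 in RefSeq order, as are Prelp and Fmod (-1.40) on chromosome 1.

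Among enzymes that process, cross-link or cut matrix, Adamts2, which trims the amino end of procollagen, had a level of 6.21 at E12, against 9.89, 9.87, 9.91 and 9.97 at E14, or 12.8-fold lower, with its other 3 probes between -1.54 and -0.23. Loxl1, which cross-links elastin, was 10.6-fold lower (7.58 at E12, against 10.94 to 11.05 at E14), while its relatives Lox and Loxl2 were at -1.51 and -0.95 and elastin itself, Eln, at -1.62. Of 37 matricellular, elastic and microfibril genes, 12 (32.4%) were at least 2-fold lower and 1 (2.7%) higher, against 2.76% and 0.331% of all genes, with a median of -0.68. The exception was Smoc1, a secreted modulator of BMP signals, at 1.86, while its paralogue Smoc2 was at -1.23, with a second probe at -0.64. Fibronectin (Fn1) at -0.01 and fibrillin 1 (Fbn1) at 0.23 were near E14. Among 32 matrix proteases and inhibitors, 6 (18.8%) were at least 2-fold lower, 25 passed in neither direction and 1 (3.12%) was higher. Adamts15, a protease of versican, was that member and was 4.10-fold higher (10.41 at E12, against 8.38, 8.30, 8.05 and 8.06 at E14), while its substrate Vcan was at -1.18, with a probe at -0.09. The protease inhibitor Timp1 was 4.39-fold lower by its brightest probe, but its other probes both gave -0.75. By the software's ratios the brightest gave -2.20 and the others -1.77 and -1.17.

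Neither dentin nor bone is laid down in the germ at these stages. Among genes of mineralised tissue, Enpp1, which makes the mineralisation inhibitor pyrophosphate, was 10.5-fold lower and the phosphatase Alpl, which removes pyrophosphate, 5.31-fold lower. Spp1 (osteopontin) had a level of 6.52 at E12, against 9.58, 9.64, 9.66 and 9.65 at E14, or 8.31-fold lower. Of 18 measured odontoblast, dentin and bone genes, 6 were at least 2-fold lower and 0 higher, with a median of -0.80. Several were dim at E12, among them the bone sialoprotein gene Ibsp and Dmp1 of dentin, and Dspp was not well above background in either channel. Spp1 and Mmp9 (gelatinase B, 8.64-fold lower) are also products of osteoclasts, and the osteoclast genes Acp5 and Ctsk were at -1.56 and -1.49. The 8 measured osteoclast markers, Mmp9, Acp5 and Ctsk among them, had a mean log2 level of 6.21 at E12, against 7.22 to 7.29 at E14. The 18 macrophage and leukocyte markers had 6.91 against 7.37 to 7.43, with Lyz2, a lysozyme, 3.66-fold lower. The part of these cells in the Spp1 and Mmp9 differences was not tested.

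**Figure D3:**
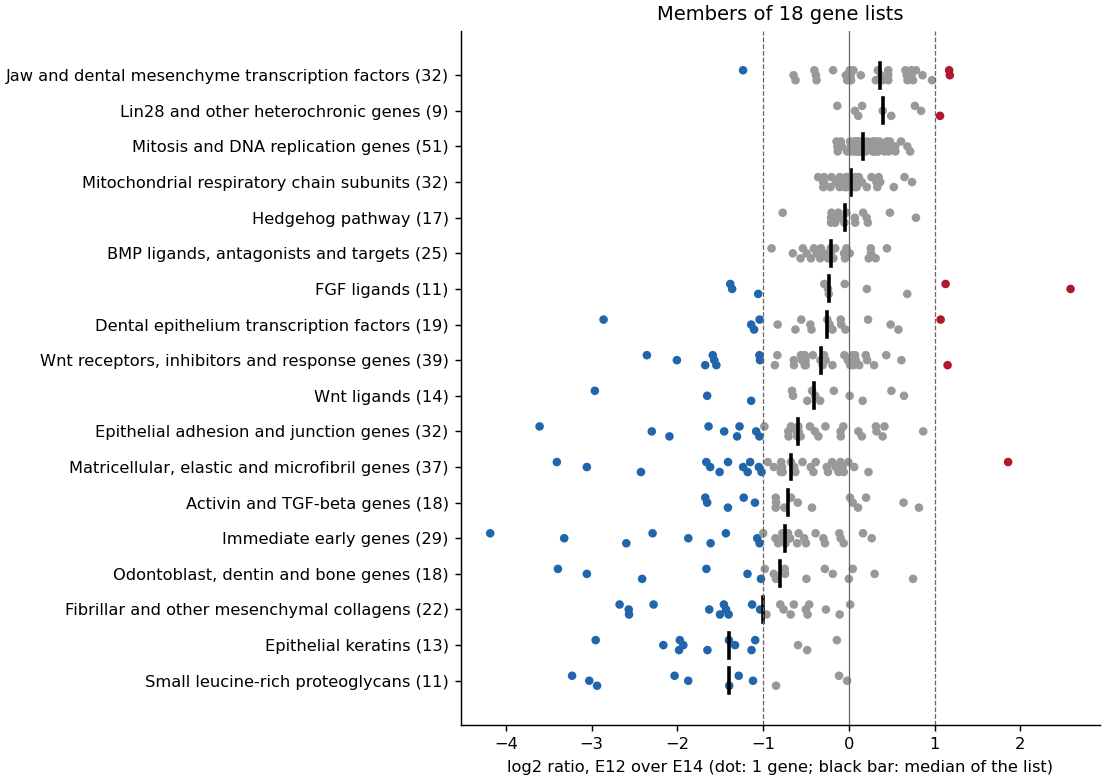
Log2 ratio of E12 over E14 (horizontal) of every measured member of 18 gene lists (number in brackets), with each list's median as a black bar, members at least 2-fold higher in red and lower in blue. Small leucine-rich proteoglycans and epithelial keratins have the lowest medians (-1.40 each), and mitosis and respiratory chain genes lie close around 0 with no member past 2-fold. Under median centring without loess all medians shift up by differing amounts, and the hedgehog list turns from just below to just above the median of all genes.

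Among epithelial structural genes, Krt17, a keratin of basal and appendage epithelium, had a level of 12.79 at E12, against 15.74, 15.84, 15.55 and 15.53 at E14, or 7.74-fold lower. The basal keratin Krt5 had 13.23 at E12, against 15.39, 15.37, 14.94 and 15.12 at E14, while its usual partner Krt14 was at -1.09 and the simple-epithelium keratins Krt18 and Krt8 were at -1.14 and -0.14. Of 13 measured keratins, 10 were at least 2-fold lower and 0 higher, with a median of -1.40. The neighbours Krt75, Krt6b, Krt6a and Krt5 on chromosome 15 and Krt13, Krt15 and Krt19 on chromosome 11 were all 2-fold lower by their brightest probe, Krt13 having a second probe at -0.53.

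Adhesion genes of stratified epithelium followed with a wider spread. Serpinb5 (maspin, a serpin of epithelial cells) had a level of 7.30 at E12, against 10.91, 10.93, 10.95 and 10.97 at E14, or 12.2-fold lower. Lgals7, a galectin of stratified epithelia, was 10.5-fold lower. The desmosome genes Pkp1 and Dsp were at -2.30 and -1.08, and the hemidesmosome genes Lamb3, Col17a1 and Itgb4 at -2.09, -1.64 and -1.30. Other probes gave -1.01 to -0.27 for Dsp and -0.66 for Col17a1. By the software's ratios all Dsp probes lay between -1.16 and -0.92, and the Col17a1 probes gave -1.78 and -1.13. Of 32 junction genes, 9 (28.1%) were at least 2-fold lower and 0 higher, against 2.76% and 0.331% of all genes, with a median of -0.59. The adherens and tight junction side differed less, with Cdh1 at -0.60, Epcam at -0.36 and the claudins Cldn3, Cldn4 and Cldn7 at 0.39, 0.31 and 0.87. Over 12 epithelial markers, all measured, the mean log2 level was 9.48 at E12, against 10.11 to 10.15 at E14, and their ratios ran from -2.16 (Krt5) to 0.15 (the splicing factor Esrp1). The share of epithelium in each pool was not tested.

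Calcium-binding S100 proteins were described after their values were seen. S100a4 had a level of 8.82 at E12, against 12.30, 12.29, 12.34 and 12.31 at E14, or 11.1-fold lower, and its neighbour S100a6 had 9.03 at E12, against 12.43, 12.46, 12.52 and 12.46, or 10.6-fold lower. Of 12 measured family members, 7 were at least 2-fold lower and 0 higher, against 2.76% and 0.331% of all genes, with a median of -1.26. S100b, which also marks Schwann cells and cartilage, was at -2.57, and the neurotrophin receptor Ngfr, of glia and dental mesenchyme, was at -2.12, with its second probe at -0.56. By the software's ratios these Ngfr probes gave -2.18 and -1.99. The glial factor Sox10 was at 0.01. The 12 glial markers, S100b and Ngfr among them, had a mean log2 level of 7.30 at E12, against 7.94 to 8.03 at E14. The neuropeptide gene Calca was 5.75-fold lower, while the other 10 measured neuronal markers lay between -0.53 and 0.56.

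Among signalling genes, the FGF ligands split. Fgf8, an early ligand of the oral epithelium that helps to place the molar field, had a level of 10.31 at E12, against 7.73, 7.78, 7.28 and 7.29 at E14, or 6.00-fold higher by a probe at chr19:45633777-45633836 (mm7, minus strand). Its second probe was dim in the E14 channel and gave 0.55. By the software's ratios the Fgf8 probes gave 3.20 and 3.16. Of 11 measured ligands, 2 (18.2%) were at least 2-fold higher and 3 (27.3%) lower, against 0.331% and 2.76% of all genes. The median was -0.23 and became 0.08 over the members above background in both channels. The other higher member was Fgf13, an intracellular FGF-related protein that is not secreted, at 1.13, with its other probes at 0.25 and 0.26. Fgf18 was at -1.38 and Fgf20, a ligand of the enamel knot, at -1.06. Fgf3, which the dental mesenchyme and the knot make, was dim at E12. It was at least 2.75-fold below the mean of the E14 levels, and 2.57-fold lower on the E12 array alone. Fgf4 had no probe of that name. Fgf9 and Fgf10, ligands of epithelium and mesenchyme, were at 0.68 and 0.21.

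FGF receptors and feedback genes showed no common direction. The transcription factor Etv4, a target of FGF signals, was at -1.64 and its relatives Etv1 and Etv5 were at 0.08 and 0.12. Fgfr2 was at -1.06 on its brightest probe and at -0.47 and -0.21 on the others, Dusp6, the ERK phosphatase, was at -0.83, and the Sprouty and Spred inhibitors Spry1, Spry2, Spry4, Spred1 and Spred2 lay between -0.13 and 0.04. Of 16 genes, 2 (12.5%) were at least 2-fold lower and 0 higher, against 2.76% and 0.331% of all genes, with a median of -0.09.

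Among Wnt ligands, Wnt10a, a ligand needed for normal tooth shape, had a level of 8.0 at E12, against 10.96, 10.96, 11.01 and 11.02 at E14, or 7.79-fold lower. Wnt2 and Wnt3a were at -1.65 and -1.14, and Wnt5a, Wnt6 and Wnt7b at -0.17, 0.01 and 0.50. Of 14 measured ligands, 3 (21.4%) were at least 2-fold lower and 0 higher, against 2.76% and 0.331% of all genes, with a median of -0.41. Among inhibitors, Wif1 was 5.11-fold lower, Sostdc1 (ectodin, which also binds BMPs) 4.01-fold and Dkk1 3.19-fold, whereas Frzb was at 0.61, Sfrp1 at -0.19 and Sfrp2 at -0.05. The R-spondins, which amplify Wnt signals, went apart, with Rspo1 at -1.57 and Rspo2 at 1.15. The response genes Sp5, Lef1 and Axin2 were at -1.55, -0.64 and 0.29. Over 39 receptors, inhibitors and response genes, 8 (20.5%) were at least 2-fold lower and 1 (2.56%) higher, with a median of -0.33.

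Activin and TGF-beta genes came next. Inhba, the activin subunit made by dental mesenchyme, had a level of 10.94 at E12, against 12.35, 12.38, 12.33 and 12.32 at E14, or 2.66-fold lower, and its antagonist Fst was 3.14-fold lower. The latent TGF-beta binding protein Ltbp4 was at -1.67 and Tgfb1 at -1.23, whereas the receptor Tgfbr1 was at 0.82 on its brightest probe and 0.20 on the other. Of 18 measured genes, 5 (27.8%) were at least 2-fold lower and 0 higher, against 2.76% and 0.331% of all genes, with a median of -0.71 and 6 members above 0. None of 25 BMP genes and none of 17 hedgehog genes passed 2-fold. With 3.1% of all genes past it, lists of this size can hold none, so these counts do not set the lists apart. By the software's ratios Bmp3 was at -2.01, Shh at -1.93 and Bmpr1b, dim at E14, at 3.30. The medians of the BMP and hedgehog lists by those ratios were -0.30 and -0.01. Bmp4 and Bmp2 were at -0.24 and -0.21 and Bmp3 at -0.90. Shh had 6.14 at E12, against 6.91, 6.91, 7.16 and 7.31 at E14, a ratio of -0.77, while its target genes Ptch1 and Gli1 were at 0.21 and 0.07. The Notch target Heyl was 3.15-fold lower (its other probe, dim at E12, gave -0.34), and of the other 15 measured Notch genes 0 passed 2-fold. That 1 gene is 6.25% of a short list, against 2.76% of all genes lower, so the count does not set the Notch genes apart.

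The tissue-specific transcription factors differed between lists. Sp6 (epiprofin), a factor of dental epithelium, had a level of 8.37 at E12, against 11.23, 11.27, 11.31 and 11.30 at E14, or 7.26-fold lower by its brightest probe, and the other probe, dim at E12, gave -0.59. By the software's ratios the Sp6 probes gave -2.95 and -2.70. Of 19 dental epithelium factors, 4 were at least 2-fold lower, with Nkx2-3 at -1.14, Tbx1 at -1.10 and Irx2 at -1.04 (its other probes at -0.75 and -0.06). The jaw and dental epithelium factor Pitx1 was the 1 higher member, with a level of 14.40 at E12, against 13.33, 13.43, 13.47 and 13.63 at E14. The median of the list was -0.25.

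Jaw and dental mesenchyme factors had a median of 0.36, above 0 in 23 of 32 members. Tbx3 and Tbx15 were 2.26- and 2.25-fold higher, with further probes at 0.57 for Tbx3 and at 1.30 and 0.32 for Tbx15, and the LIM-homeobox factors Lhx6 and Lhx8, which pattern the jaw, were at 0.97 and 0.86. Prrx2 was the 1 member at least 2-fold lower, at -1.23, and its paralogue Prrx1 was at -0.02. Msx1 and Pax9, which are needed to pass the bud stage, were at -0.03 and 0.03, and Runx2 and Dlx2 at -0.38 and -0.62. Tbx18, dim in the E14 channel, was at least 1.75-fold above the mean of the E14 levels, and 1.72-fold higher on the E12 array alone. Only 4 of 28 Hox genes were above background in either channel, and their ratios lay between -0.16 and 0.08.

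**Figure D4:**
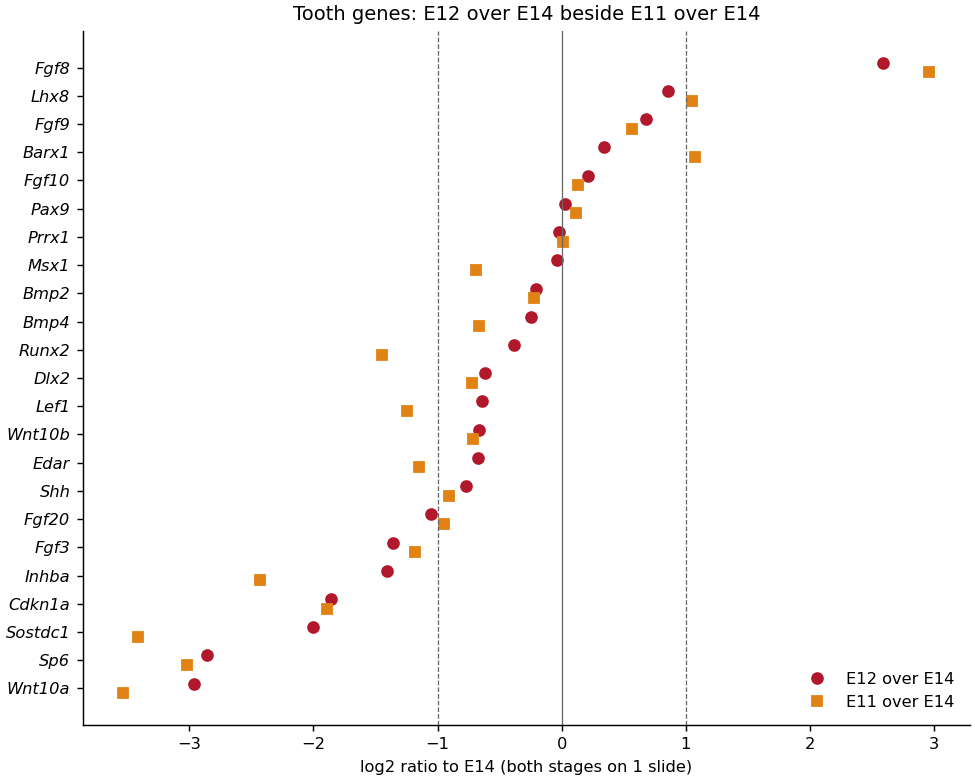
Log2 ratio to E14 (horizontal) of measured genes of a list of tooth genes, at E12 (circles) and at E11 (squares), both against E14 RNA and on 1 slide. Fgf8 is the 1 gene past 2-fold on the right at E12, Wnt10a, Sp6 and Sostdc1 lie furthest left, and Msx1 and Runx2 are closer to E14 at E12 than at E11.

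None of 51 mitosis and replication genes passed 2-fold, but 45 had ratios above 0 and the median was 0.16, with Cdc25c, a mitotic phosphatase, at 0.71 and Mki67 at -0.08. The CDK inhibitors Cdkn1a, which marks the enamel knot, and Cdkn2c were 3.63- and 2.67-fold lower, and cyclin Ccnd2 was at -1.13. In the list of 11 D cyclins and CDK inhibitors the median of -0.51 turned to 0.05 above the median of all genes under median centring. Of 9 heterochronic genes, which are high in early embryos, 1 was at least 2-fold higher: the architectural factor Hmga2 was at 1.06 (1 of its 3 probes at -0.38), the RNA-binding Igf2bp3 at 0.84 and Lin28b, dim at E14, at least 1.77-fold higher (1.70-fold on the E12 array alone), with a median of 0.40 over the list. Dlk1, an imprinted inhibitor of differentiation, was at 1.58 and 1.64 by its 2 probes. The binding proteins Igfbp7 and Igfbp3 were 4.24- and 3.26-fold lower, the second Igfbp3 probe giving -0.24, and Ndrg1, a stress and hypoxia gene, was 6.63-fold lower, while the hypoxia gene Vegfa was at -0.45. By the software's ratios the Igfbp3 probes gave -1.81 and -1.22.

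Genes of red cells went in opposite directions. The highest gene above background in both channels was Hbb-bh1, the embryonic beta-like globin of primitive red cells, with a level of 13.09 at E12, against 10.16, 10.10, 9.96 and 10.04 at E14, or 7.64-fold higher. A second probe for it (chr7:99898199-99898258, mm7, minus strand, which overlaps the first at chr7:99898179-99898238) gave 4.01. Hba-x, the embryonic zeta globin, had 12.54 at E12, against 10.56, 10.76, 10.26 and 10.19, or 3.94-fold higher, and Hbb-y, the epsilon-like globin, was at 0.57. The adult alpha globin Hba-a1 was at -1.64 and -1.70 by its 2 probes. The 4 probes for the adult beta globin Hbb-bt, named after their values were seen, gave -3.97, -3.84, -3.61 and -2.16, and RNA of its near-identical neighbour Hbb-bs may bind them too, so the copies cannot be told apart. Other red cell genes were closer to E14, with the heme enzyme Alas2 at -1.10, the erythroid factor Klf1 at 0.12 and the membrane exchanger Slc4a1 at 0.68. The 13 measured red cell markers had a mean log2 level of 9.19 at E12, against 8.74 to 8.85 at E14. That mean includes Hbb-bh1 and Hba-x but leaves out Hbb-bt, which was lower at E12 by all 4 probes. Blood left in the pools was not tested as a source.

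**Figure D5:**
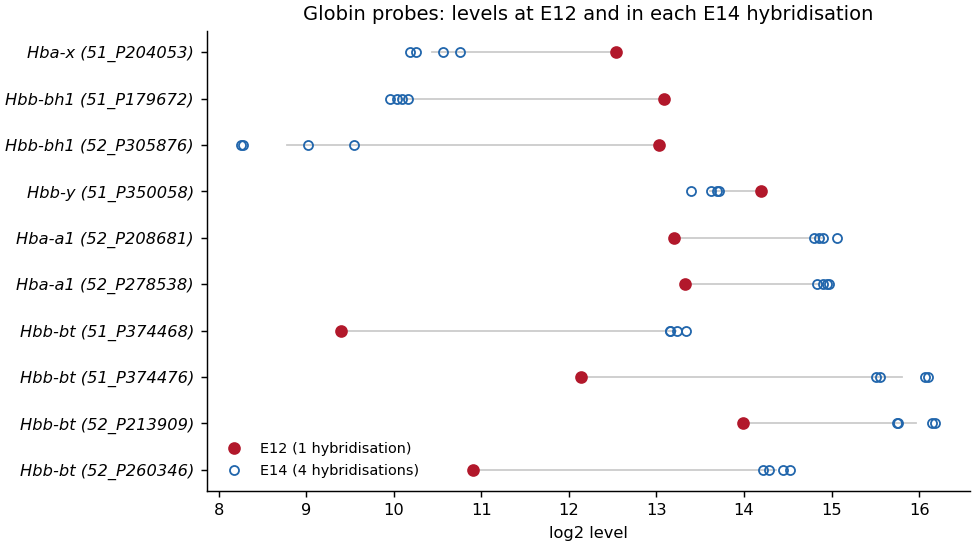
Log2 level at E12 (filled) and in each of 4 E14 hybridisations (open) for 10 globin probes, labelled by gene and probe number. The embryonic genes Hba-x, Hbb-bh1 and Hbb-y have higher levels at E12, the adult genes Hba-a1 and Hbb-bt have lower levels, and the 2 Hbb-bh1 probes differ in their E14 level.

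The remaining genes furthest above E14 had no common role. Asb4, a subunit of a ubiquitin ligase, had a level of 11.82 at E12, against 9.21, 9.18, 8.96 and 9.01 at E14, or 6.13-fold higher, and its second probe, dim at E14, gave 0.87. By the software's ratios the Asb4 probes gave 2.84 and 3.10. The membrane carbonic anhydrase Car14 was 3.83-fold higher, the chemokine Cxcl14 3.34-fold, the mitochondrial creatine kinase Ckmt1 3.27-fold and the thyroid hormone binding protein Crym 3.09-fold. Dio3, which inactivates thyroid hormone, was 8.53-fold lower. Pf4, a chemokine of platelets and their precursors, was 3.06-fold higher, and its neighbour Ppbp, of the same cells, was at 1.43. Nnat, an imprinted membrane gene, was at 1.63, but its E14 level was 10.20 and 10.78 on the E12 and E11 arrays and 9.24 and 9.17 on the other slide. Bounds for genes dim at E14 were small, the largest being at least 2.15-fold for Agtr1a, an angiotensin receptor (7.23 at E12, against 6.01 to 6.27 at E14, with a second dim probe at a ratio of 0.09). On the E12 array alone Agtr1a was 2.07-fold higher.

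The E14 levels differed between the slides. Among the 55 genes at least 2-fold higher at E12, 44 (80.0%) had both E14 levels on the slide of the E11 and E12 arrays above both on the other slide, against 39.7% of all genes. Among the 459 lower genes the share was 18.1%, and 30.1% had both levels below those of the other slide, against 10.5% of all genes. The median shift was 0.13 log2 units for the higher genes and -0.02 for the lower genes. Of the 15 highest genes, 13 (86.7%) had both levels above those of the other slide, with a median shift of 0.27, among them Fgf8, Hba-x, Car14 and Nnat. Of the 15 lowest, 9 (60.0%) had both levels below, with a median shift of -0.04. The source of the shifts was not tested.

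E11 was measured against E14 on the same slide, so the ratios of both stages share E14 and are given side by side only. Among genes at least 2-fold from E14 at E12 and above background at both stages, the largest gaps upwards were in Col8a1 (-2.67 at E12 and -4.83 at E11), the annexin Anxa1 (-1.15 and -3.30), the neurotrophin receptor Ntrk2 (-1.08 and -3.12), the desmosome gene Dsp (-1.08 and -2.92) and the hemidesmosome integrin Itgb4 (-1.30 and -3.11). Downwards they were in Wdfy1, an endosomal adaptor (-1.98 and -0.22, a probe dim at E14 giving -0.04 at E12), the repressor Hic1 (-1.79 and -0.24), Hbb-bh1 (2.93 and 4.49), the amino acid enzyme Bcat1 (1.17 and 2.51, a probe dim at E14 giving 0.14 at E12), the neutrophil protein S100a9 (-1.79 and -0.56) and Spp1 (-3.06 and -1.97). Cyp26b1, the enzyme that breaks down retinoic acid, lay on opposite sides of E14, with a ratio of 1.17 at E12 and -0.67 at E11. Its level was 12.34 at E12, against 11.17, 11.29, 11.16 and 11.13 at E14, from a probe at chr6:84601274-84601333 (mm7, minus strand). The retinoic acid synthesis gene Aldh1a3 was at -1.24 (a probe dim at E12 gave -0.32), its relative Aldh1a2 at 0.49 and the receptor Rarb at -0.70.

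Markers of other cells bear on how alike the dissected pools were. All 12 jaw mesenchyme markers and all 12 epithelial markers were above background in at least 1 channel. The mesenchyme markers had a mean log2 level of 11.13 at E12, against 10.98 to 11.04 at E14. The 20 endothelial markers had 8.42 at E12, against 8.60 to 8.68, with a median ratio of -0.39. Of these, 17 had ratios below 0 and 3 above, from Plvap at -0.69 to Vwf at 0.94, with Pecam1 at -0.07 and Cdh5 at -0.01. Skeletal muscle and cartilage markers had 6.38 and 7.43 at E12, against 6.55 to 6.58 and 7.62 to 7.65, and the muscle regulators Myod1 and Myf5 were not well above background in either channel. Xist, which is transcribed from the inactive X of female embryos, was at -0.81 by its brightest probe and at -0.49, -0.18 and -0.16 by the others, and the Y-linked Ddx3y, Eif2s3y and Kdm5d lay between -0.30 and 0.22, and the part of the sex make-up of the pools was not tested.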

How the data were processed

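Per the labels' protocols, total RNA was extracted with Trizol from pooled germs, with E14 labelled with Cy3 and the other stage with Cy5. Per the file headers, the arrays were read with Agilent Feature Extraction 10.5.1.1 (named without a version in the submitters' processing notes), and each deposited file lists spot intensity (linear) and flags. The deposited LogRatio column holds log10 values, Cy5 above Cy3 positive, after the software subtracted background and normalised dyes, per the file headers. The deposited value table equals it: 100% of values matched within 0.5% on each array, its column medians were 0, and scale, centring and direction are thereby known.

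Spot intensities went through limma 3.58.1 (R 4.3.3) to give log2 ratios, with normexp background correction (offset 50) and loess with control spots at weight 0. The 115 spots of the E12 array with outlier flags were left out, no spot was saturated, and spots of a probe were averaged. Levels per channel were put on 1 scale by Aquantile. The median spot signal was 71.7 in Cy5 over a background of 33.0, and 41.8 in Cy3 over 15.0, so the offset pulls dim genes towards 0, those higher at E12 more. Precision is limited by having 1 array, and probes with 10 or more spots had a median SD of 0.0675 between spots. Spike-in ratios had a slope of 0.932.

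A gene took the ratio of its brightest probe. Where it was dim in 1 channel, "at least" bounds divide the bright level by whichever was larger, the dimmest signal called well above background or the dim level itself. In these bounds the E14 level is averaged over the 4 hybridisations, so a bound can exceed the fold on the E12 array alone. The bounds are open to dye bias. Names came from RefSeq (GRCm38.p6) by accession for 23082 probes, symbol for 6582 and synonym for 3073, and 8437 kept the array's name. Coordinates are the array's (mm7 per the file headers). The 5859 genes with several probes held 0 with probes 2-fold apart in opposite directions.

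There is 1 array, so genes past 2-fold were counted without a test. Named were the 15 highest and 15 lowest genes, 8 bounds each way, in each list as many as 4 genes per direction past 1.5-fold, a list of tooth genes and the 6 largest gaps to E11 each way; other members stand as examples chosen after their values were seen. Some listed genes are not reported here. The members and lists were chosen with earlier results of these data known. The ratio step was run on simulated data with changes planted evenly in both directions and only in brighter spots. That run did not examine dim spots or a set of changes that runs mostly 1 way. Alternatives covered background correction, offset, the software's ratios, median centring, probe choice, scaling and fold.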

Additional observations from a re-analysis of the deposited data

Results flagged for a closer look

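For 13 of 220 named genes, 1 of the 4 E14 hybridisations lay apart from the other 3 by Dixon's criterion. The criterion's rate of about 1 in 20 holds for 4 like values only. The E14 levels differed between the slides, so that rate gives no verdict on the count of 13. On the E12 array itself the flagged values were the E14 levels of Fgf18 (9.47, others 9.39 to 9.40), Hoxb6 (7.14, others 7.44 to 7.49), Pkp1 (11.93, others 11.87), Cdkn2c (8.52, others 8.59 to 8.60) and Erg (7.95, others 7.77 to 7.79). On the E11 array they were those of Lix1 (6.48), Adamts19 (6.97), Kif20a (12.13) and Hic1 (9.02). On the E16 array they were those of Krt6a (9.48, others 8.76 to 8.86), Thbs2 (8.24) and Timp1 (10.74), and on the E18 array that of S100a9 (8.75).

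Cyp26b1 was higher at E12 (1.17) and lower at E11 (-0.67) than at E14. Each stage has 1 pool, and the difference between them was not tested.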

How the results depend on the processing

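No paired analysis was possible because there is 1 array per stage. The count of 514 genes 2-fold apart (55 higher, 459 lower at E12) was 734 without background correction (89 higher), 836 with a smaller offset of 16 (115 higher, 721 lower), 2052 by the software's ratios (772 higher, 1280 lower), 5789 under median centring (5663 higher, 126 lower) and 706 with the channels brought to 1 scale before the offset (84 higher), an alternative chosen after seeing the data. At 1.5-fold it was 1741 (429 higher, 1312 lower) and at 3-fold 163 (15 higher, 148 lower). With both channels above background it was 490, with the median over probes 414 and with ratios scaled between arrays 526. All 514 genes kept their direction under the alternatives that gave each a value, except median centring, under which 456 did, and 490 of 490 did with both channels above background. There the values of named genes with the opposite sign were Nfkbia 0.162, Tbx1 0.171, Prrx2 0.194, Ccnd2 0.419, Hspa5 0.410, Nrp2 0.277, Krt18 0.212, Krt14 0.448, Vim 0.408, Anxa1 0.067, Ntrk2 0.058 and Dsp 0.198, each below the median of all genes (0.693). Relative to that median, 4 of 38 lists with medians beyond 0.1 changed side there (D cyclins and CDK inhibitors, IGF axis, heat shock proteins, red cells), 1 with both channels above background (FGF ligands) and 1 with the median over probes (heat shock proteins). The signal over background limits dim genes, whose ratios are compressed: Egr2 was at -4.18 here and at -6.69 by the software.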
